A study of Mus musculus with 24 samples.

Results

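The genes of the mouse H2 complex, which encode the histocompatibility molecules, were followed in liver RNA across 8 groups of mice. Members were all genes whose symbol in the expression tables starts with H2-, with names ending in -ps left out; the rule used no measured value, and no member symbol was repeated. It found 42 of the 24339 genes kept, all on chromosome 17 between positions 33974659 and 37483529 (mm10). Of these, 25 reached 1 FPKM (mapped fragments scaled by transcript length and library size) in at least 3 of the 24 libraries and were tested; the other 17 were at 0.752 FPKM or less in every library.

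Each group held 3 libraries, and all mice were C57BL/6. Wild type (WT) mice at postnatal day 5 or day 60 were given corn oil or TCPOBOP, an agonist of mouse CAR. Mice labelled hCAR-TG, which carry human CAR as a knock-in, were given corn oil or CITCO, an agonist of human CAR, at the same ages. CAR, the constitutive androstane receptor, is a nuclear receptor of hepatocytes encoded by Nr1i3, and corn oil was the control in both genotypes. Genotype and ligand always changed together, so receptor and ligand cannot be told apart. Dose, route, time after dosing, the sex of the mice and the remaining activity of the mouse receptor in hCAR-TG mice are not stated in the labels. Nor do the labels say that replicates are separate animals, so p-values measure only the spread between these samples, which may be technical.

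As background, class I molecules consist of an H2 heavy chain and the light chain B2m. They carry peptides that the proteasome makes and the TAP transporter (Tap1 and Tap2) pumps into the endoplasmic reticulum, and they show them to CD8 T cells and natural killer cells. H2-K1 and H2-D1 are the classical (class Ia) chains of nearly all nucleated cells, while the Q, T and M regions hold the class Ib chains, among them H2-Q10, a secreted chain made by hepatocytes. Class II molecules pair an alpha and a beta chain (H2-Aa with H2-Ab1), are guided by the invariant chain Cd74, receive peptide with the help of the H2-DM chains, and are made mainly by macrophages, dendritic cells and B cells. Hepatocytes normally carry little class I and hardly any class II on their surface. H2-Ke6, which lies in the complex, encodes a steroid dehydrogenase and no histocompatibility molecule.

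Start-site sequences are shown for 5 members that moved together: H2-K1, H2-D1 and H2-Q10, called higher with age in both genotypes, and H2-Aa and H2-Eb1, called lower with CITCO at day 5. Each run is 300 bases of RefSeq (GRCm38.p6), 250 before the annotated start and 50 from it, read 5′ to 3′ on the gene's strand. Capitals mark matches, on either strand, to GGGGATTCC (the kappa B site of class I enhancers), GATTGG (the Y box core), CAACNGATG (the X box core of class II genes) and GAAANNGAA (the core of interferon-stimulated response elements); no matches overlapped in these runs.
H2-K1 (chr17:34000284-34000583, minus strand): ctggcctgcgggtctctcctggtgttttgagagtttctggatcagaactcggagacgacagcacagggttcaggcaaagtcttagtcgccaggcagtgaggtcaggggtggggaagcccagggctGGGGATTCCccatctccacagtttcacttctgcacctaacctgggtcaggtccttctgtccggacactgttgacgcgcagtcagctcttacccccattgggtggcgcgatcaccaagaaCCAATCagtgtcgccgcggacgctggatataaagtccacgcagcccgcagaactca
H2-D1 (chr17:35262844-35263143, plus strand): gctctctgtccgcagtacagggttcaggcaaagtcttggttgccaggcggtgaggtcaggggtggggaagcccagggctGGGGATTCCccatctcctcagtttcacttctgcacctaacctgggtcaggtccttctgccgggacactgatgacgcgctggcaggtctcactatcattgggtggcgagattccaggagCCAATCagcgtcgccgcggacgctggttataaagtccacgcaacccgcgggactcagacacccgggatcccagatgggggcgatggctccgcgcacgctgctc
H2-Q10 (chr17:35469839-35470138, plus strand): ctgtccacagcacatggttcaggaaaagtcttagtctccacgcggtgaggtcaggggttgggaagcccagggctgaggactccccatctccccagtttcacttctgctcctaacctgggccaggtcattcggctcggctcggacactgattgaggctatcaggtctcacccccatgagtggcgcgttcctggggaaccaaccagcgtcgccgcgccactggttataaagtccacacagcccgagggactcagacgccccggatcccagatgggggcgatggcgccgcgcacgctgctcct
H2-Aa (chr17:34287774-34288073, minus strand): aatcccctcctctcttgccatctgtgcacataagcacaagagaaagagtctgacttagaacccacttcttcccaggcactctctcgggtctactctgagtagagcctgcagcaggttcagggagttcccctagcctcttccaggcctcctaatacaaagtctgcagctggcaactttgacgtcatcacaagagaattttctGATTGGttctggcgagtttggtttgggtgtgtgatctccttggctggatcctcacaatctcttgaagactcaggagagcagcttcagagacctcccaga
H2-Eb1 (chr17:34305617-34305916, plus strand): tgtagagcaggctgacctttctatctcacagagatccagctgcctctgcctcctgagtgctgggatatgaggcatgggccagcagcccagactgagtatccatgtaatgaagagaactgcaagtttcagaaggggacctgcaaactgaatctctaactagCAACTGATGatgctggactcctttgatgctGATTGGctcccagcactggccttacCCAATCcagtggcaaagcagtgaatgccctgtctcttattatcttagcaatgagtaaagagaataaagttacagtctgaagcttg

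H2-K1 and H2-D1 each held a kappa B match, 125 and 171 bases before the start, and a Y box on the opposite strand. H2-Q10 held no match to any of the 4 motifs as searched. H2-Aa held a Y box 49 bases before the start, and H2-Eb1 held an X box at 90 bases and Y boxes at 60 and 35 bases. Promoter entries were found for 31 of the 42 members. The kappa B letters stood in 4 of these 31 (H2-K1, H2-D1, H2-Q6 and H2-Q7) and in 0.250% of all 32851 promoter windows of that length, some of which are other starts of the same gene. The X box letters stood in 2 members (H2-Eb1 and H2-Eb2) against 0.566% of all windows, the Y box letters in 25 members against 16.1%, and the interferon element letters in 2 (H2-T22 and H2-T23) against 8.56%. These are matches of letters only.

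Class I genes made up most of the H2 signal of the liver. H2-Q10, H2-K1 and H2-D1 together held 66.1 to 66.7% of the summed FPKM of all H2 genes in WT corn oil libraries at day 5 and 80.1 to 82.7% at day 60. H2-Q10 was the highest member in all 24 libraries, at 409.5 to 1137 FPKM. H2-T23, which encodes the Qa-1 molecule read by natural killer receptors, ranged from 97.9 to 228 FPKM and, in all 3 WT corn oil libraries of day 5, lay above H2-K1 and H2-D1. The class II surface chains H2-Aa, H2-Ab1 and H2-Eb1 had medians over the 24 libraries of 20.3, 15.8 and 9.17 FPKM, and the class II loading chains H2-DMa and H2-DMb1 of 2.02 and 2.68 FPKM. Surface chain names a role here: no protein was measured, so display at the surface was not shown for any of these chains.

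Members without a test included 11 of the 12 M region genes, with H2-M1, H2-M9 and H2-M10.1 at 0 FPKM in every library. H2-M3, which presents formylated peptides, was the M region gene that passed the filter. Also below it were H2-L, H2-Q6, H2-T3, H2-Eb2, H2-Oa and H2-Ob; the latter pair encodes the DO molecule that restrains H2-DM, and reached 0.729 and 0.752 FPKM. H2-L lies within the locus of H2-D1, H2-Q6 within that of H2-Q8, H2-Q9 within that of H2-Q7, and H2-T9 within that of H2-T22, so the split of reads within each pair is uncertain. In GENCODE M21, H2-Bl, H2-Q5 and H2-T10 are polymorphic pseudogenes, H2-K2 is a transcribed pseudogene, and H2-Q8, H2-Q9 and H2-T9 have no gene of their own. Of the 22 tested members with a GENCODE transcript, 8 shared under 10% of their 50-base stretches with any other gene, and 1, H2-Ke6, shared 96.3%, with the readthrough gene Gm20427. H2-K1 shared 8.11%, H2-D1 14.3%, H2-Q10 19.7% and the class II surface chains at most 0.599%.

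CAR targets responded in all 4 ligand comparisons, with 10 of 10 called higher with TCPOBOP at each age and 9 of 10 with CITCO at each age. Cyp2b10, the classical CAR target, had a log2 change of 8.35 ± 0.26 (± SE) with TCPOBOP at day 5 and of 2.44 ± 0.26 with CITCO at day 60. In corn oil livers of day 60 its mean was 225 FPKM in hCAR-TG and 12.9 in WT. Hepatocyte markers such as Alb (10579 to 51186 FPKM) were high in every library. Leukocyte markers were detected in every group. Among the 8 dendritic cell genes, Flt3 (at most 0.533 FPKM), Xcr1 (at most 0.486) and Itgax (at most 1.15) were low. Zbtb46 (1.37 to 2.83 FPKM) and Clec9a (0.555 to 1.41 FPKM) were the ones tested. At day 5, exocrine pancreas markers summed to 9.88 to 238 FPKM in WT corn oil libraries and 17.2 to 348 with TCPOBOP. The sum was 6.18 to 23.5 in hCAR-TG corn oil libraries and 4.07 to 310 with CITCO, and its part in the H2 values was not tested. Intestine markers stood out in the 3 hCAR-TG corn oil libraries of day 5: Lypd8 was at 6.28, 10.8 and 16.4 FPKM there, against 0.0803 to 1.13 in WT corn oil and 0 to 0.233 with CITCO at that age, and the Paneth cell defensin Defa24 was at 3.03, 5.95 and 14.5, against at most 0.474 and 0.495. These libraries enter the CITCO day 5, genotype day 5 and hCAR-TG age comparisons and the differences built on them, and replicate 3, the highest for these markers, was also the highest of its group for H2-Aa, H2-Ab1 and H2-Eb1. Deviating libraries were hCAR-TG corn oil day 5 replicate 3 over all genes and WT corn oil day 60 replicate 2 over the class II members; leaving out both changed a count of called members by over 1.5 times only for CITCO at day 60 and for the genotypes at day 60, where the values are given.

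Levels at day 60 against day 5 were compared in corn oil livers of each genotype. The classical class I genes and most Q region genes were higher in the adult liver, with H2-K1 showing the largest rise and H2-Q10 the next. H2-T23, H2-M3 and the class II loading chain H2-DMa were lower in both genotypes and H2-DMb1 and H2-DMb2 in WT, and the class II surface chains did not pass the test in either direction. Of the 25 members tested, 18 were called in WT (11 higher and 7 lower) and 18 in hCAR-TG (15 higher and 3 lower). Over all 12282 genes tested, 70.2% were called in WT (25.2% higher, 44.9% lower) and 71.6% in hCAR-TG (24.3% higher, 47.3% lower). The median log2 change of the members was 0.22 in WT and 0.30 in hCAR-TG, beside -0.14 and -0.17 over all genes. In WT 15 members had groups that did not overlap, against 74.3% of all genes, and in hCAR-TG 17, against 70.5%. In both genotypes 11 members were higher and 3 (H2-T23, H2-M3 and H2-DMa) lower, while H2-Bl was lower in WT and higher in hCAR-TG. The share of all genes called alike in both genotypes is not given, so these joint counts cannot be set against it.

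H2-K1 was at 195, 182 and 205 FPKM in the 3 WT corn oil libraries of day 5 and at 529, 585 and 535 at day 60. In hCAR-TG it was at 152, 124 and 161 at day 5 and at 471, 469.8 and 455 at day 60. Every adult library lay above every day 5 library, by 2.83-fold in WT means (log2 change 1.50 ± 0.10, ± SE throughout; limma adjusted p = 1.95e-11) and 3.20-fold in hCAR-TG (1.68 ± 0.10; adjusted p = 2.43e-12). H2-D1, the second classical chain, was at 182, 156 and 189 in WT at day 5 and 216, 256 and 222 at day 60, and at 142, 118 and 145 and then 203, 205 and 199.9 in hCAR-TG. Its groups did not overlap either, but the rise was smaller (0.40 ± 0.09 in WT, adjusted p = 0.000546; 0.58 ± 0.09 in hCAR-TG, adjusted p = 6.65e-06). The ratio of H2-K1 to H2-D1 therefore moved from 1.07, 1.17 and 1.09 to 2.45, 2.28 and 2.40 in WT and from 1.07, 1.05 and 1.10 to 2.32, 2.29 and 2.28 in hCAR-TG, with no overlap between the ages. H2-K2, the pseudogene next to H2-K1, rose from 2.56, 1.91 and 2.56 to 3.19, 4.08 and 4.85 FPKM in WT (0.59 ± 0.13; adjusted p = 0.000467).

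**Figure D1:**
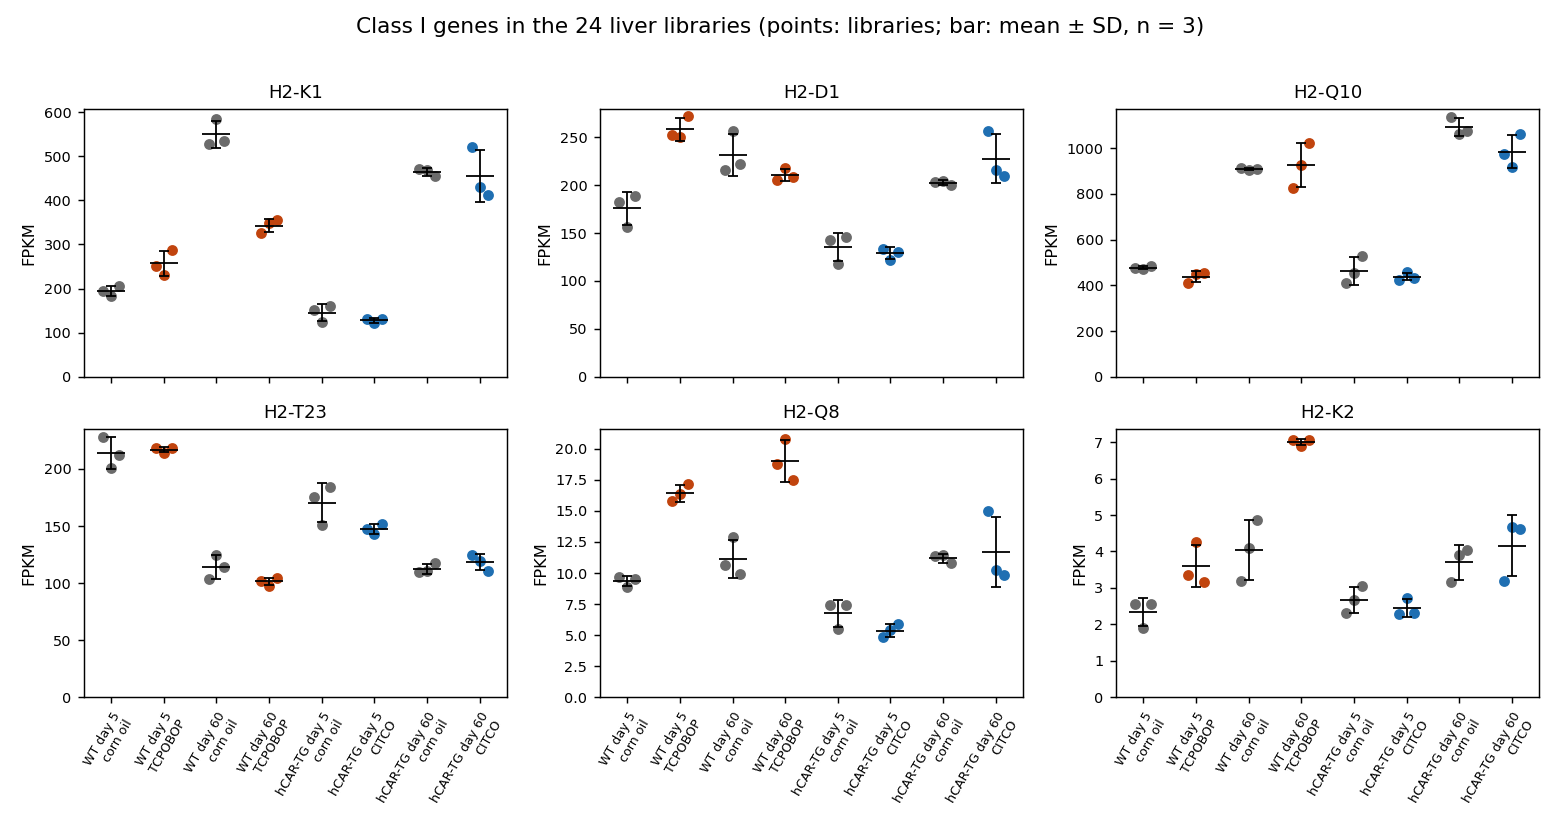
FPKM of 6 class I genes in each library (points) with the mean and SD of the 3 libraries of a group, by genotype, age and treatment (grey corn oil, orange TCPOBOP, blue CITCO). H2-K1 was highest in the WT corn oil libraries of day 60 (529 to 585 FPKM), and H2-Q8 and H2-K2 were highest in the WT TCPOBOP libraries of day 60.

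In the Q region, H2-Q10 was at 477, 470.3 and 485 FPKM in WT at day 5 and 914, 904 and 911 at day 60. In hCAR-TG it was at 409.5, 454 and 530.1 and then 1137, 1063 and 1076. The ages did not overlap in either genotype (0.93 ± 0.08, adjusted p = 2.92e-09 in WT; 1.24 ± 0.08, adjusted p = 2.5e-11 in hCAR-TG). H2-Q9, one of the genes for the Qa-2 molecule, rose from 11.2, 11.5 and 11.1 to 20.05, 22.02 and 17.6 in WT (0.76 ± 0.14) and from 7.11, 6.57 and 8.36 to 17.4, 19.9 and 15.4 in hCAR-TG (1.15 ± 0.14). H2-Q1 rose from 15.3, 15.2 and 17.8 to 24, 25.5 and 28.3 in WT (0.66 ± 0.10) and from 13.5, 13.8 and 14.3 to 26.7, 31.5 and 25.4 in hCAR-TG (0.95 ± 0.10). Of the 8 tested Q region genes, 5 were called higher in WT and 7 in hCAR-TG, and H2-Q4 was called lower in WT. H2-Q4 was at 26.04, 21.7 and 25.4 and then 17.6, 22.2 and 19.8 in WT, which overlapped, and its log2 change in hCAR-TG was -0.00 ± 0.09.

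H2-T23 moved the other way from H2-K1 and H2-D1. It was at 228, 201 and 213 FPKM in WT at day 5 and at 103, 125 and 114 at day 60, and at 175, 151 and 185 and then 109.7, 110.5 and 117 in hCAR-TG. No adult library reached a day 5 library (-0.90 ± 0.07, adjusted p = 9.31e-10 in WT; -0.59 ± 0.07, adjusted p = 4.83e-07 in hCAR-TG). H2-M3 fell from 2.99, 3.21 and 3.11 to 2.01, 1.61 and 1.61 in WT (-0.58 ± 0.07) and from 2.66, 2.59 and 2.57 to 1.43, 1.61 and 1.77 in hCAR-TG (-0.47 ± 0.07). H2-T10 and H2-T9, of the family of H2-T22 whose product gamma delta T cells can bind, were called higher in both genotypes, with log2 changes of 0.20 to 0.34; in WT each lost its call in 4 of 15 refits.

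The class II genes split with age. H2-DMa, the alpha chain of the peptide exchange molecule, fell in WT from 3.80, 3.53 and 4.10 FPKM to 2.001, 2.67 and 1.09 (-0.76 ± 0.13; adjusted p = 3.57e-05) and in hCAR-TG from 2.65, 2.35 and 2.99 to 1.53, 1.78 and 1.87 (-0.43 ± 0.13; adjusted p = 0.00727), with no overlap in either. H2-DMb1, its beta chain, was at 3.21, 3.64 and 3.43 and then 1.75, 4.02 and 1.35 in WT, where the ages overlapped (-0.47 ± 0.19; adjusted p = 0.031, a call lost in 8 of 14 refits, with adjusted p up to 0.53), and at 2.69, 2.20 and 2.87 and 1.45, 1.79 and 2.48 in hCAR-TG (-0.31 ± 0.19; adjusted p = 0.142, not called). H2-DMb2, which shares 25.2% of its stretches with H2-DMb1, fell in WT from 1.05, 1.45 and 1.71 to 0.55, 1.07 and 0.361, with an overlap (-0.55 ± 0.16; adjusted p = 0.00416). Among the surface chains, H2-Aa was at 20.4, 20.2 and 21.9 in WT at day 5 and at 24.3, 41.5 and 16.3 at day 60, and at 18.9, 15.7 and 23.6 and then 16.1, 17.9 and 19.02 in hCAR-TG. The ages overlapped in both genotypes, and the log2 changes of the 3 surface chains ran from 0.11 to 0.28 in WT and from -0.13 to -0.07 in hCAR-TG, none called. The ratio of H2-Aa to H2-DMa was 5.37, 5.72 and 5.34 in WT at day 5 and 12.2, 15.6 and 14.95 at day 60, with no overlap. In hCAR-TG the ratio was 7.13, 6.69 and 7.90 and then 10.6, 10.1 and 10.2, also without overlap.

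The genes that load class I did not follow the heavy chains as a group. B2m rose in both genotypes (0.92 ± 0.09 in WT, adjusted p = 5.81e-09; 0.92 ± 0.09 in hCAR-TG), from 729.9, 712 and 766 to 1349, 1563 and 1284 FPKM in WT. Over the 15 genes of the list, 5 rose and 7 fell in WT, and 3 rose and 8 fell in hCAR-TG. Tapbp (-0.44 in WT, -0.66 in hCAR-TG), Tapbpl (-0.51, -0.69) and Psmb10 (-0.64, -0.92) were among those that fell. Tap1 had a log2 change of -0.25 ± 0.12 in WT (adjusted p = 0.0662) and -0.58 ± 0.12 in hCAR-TG (adjusted p = 0.000179), and Nlrc5 of 0.54 ± 0.16 and 0.54 ± 0.16. Of the 8 tested class II loading genes 4 fell in each genotype, among them the thiol reductase Ifi30 (-1.66, -1.93) and the protease Lgmn (-1.27, -1.37), while Cd74 was not called (0.20, -0.01). Of 29 tested interferon response genes, 4 rose and 10 fell in WT, and 6 rose and 16 fell in hCAR-TG.

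WT corn oil day 60 replicate 2 was the highest of its group in all 6 class II members tested, and replicate 3 was below the group mean in all 6. Leukocyte markers were lower at day 60 in both genotypes: all 10 Kupffer cell (resident liver macrophage) markers, both tested dendritic cell markers, all 5 tested B cell markers and all 5 pan-leukocyte markers were called lower in each. The Kupffer sum was 648 to 675 FPKM in WT at day 5 and 276 to 314 at day 60, and the pan-leukocyte sum 91.5 to 100.5 and then 27 to 33.7; their part in the H2 values was not tested. In bulk liver, fewer cells of a type and less RNA per cell cannot be told apart. The last digit of each read file name, whose meaning is not stated, was 3 in all WT corn oil libraries of day 5 and 1 in all of day 60. With this digit as a factor, which leans on the other groups, 8 members were called in WT (4 higher, 4 lower), and H2-Q2 and H2-Q5 turned direction (-0.36 and -0.23). H2-D1 then had a log2 change of 0.11 (adjusted p = 0.667), H2-Q9 of 0.16 (adjusted p = 0.591) and H2-Q1 of 0.46 (adjusted p = 0.126), none of them called, while H2-K1, H2-K2, H2-Q10 and H2-T23 kept direction and call. In hCAR-TG the digits were 4, 4 and 5 at day 5 and 2 at day 60, so digit and age cannot be told apart there. All 5 tested intestine markers were called lower with age in hCAR-TG and 1 of 5 in WT, and their part was not tested.

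**Figure D2:**
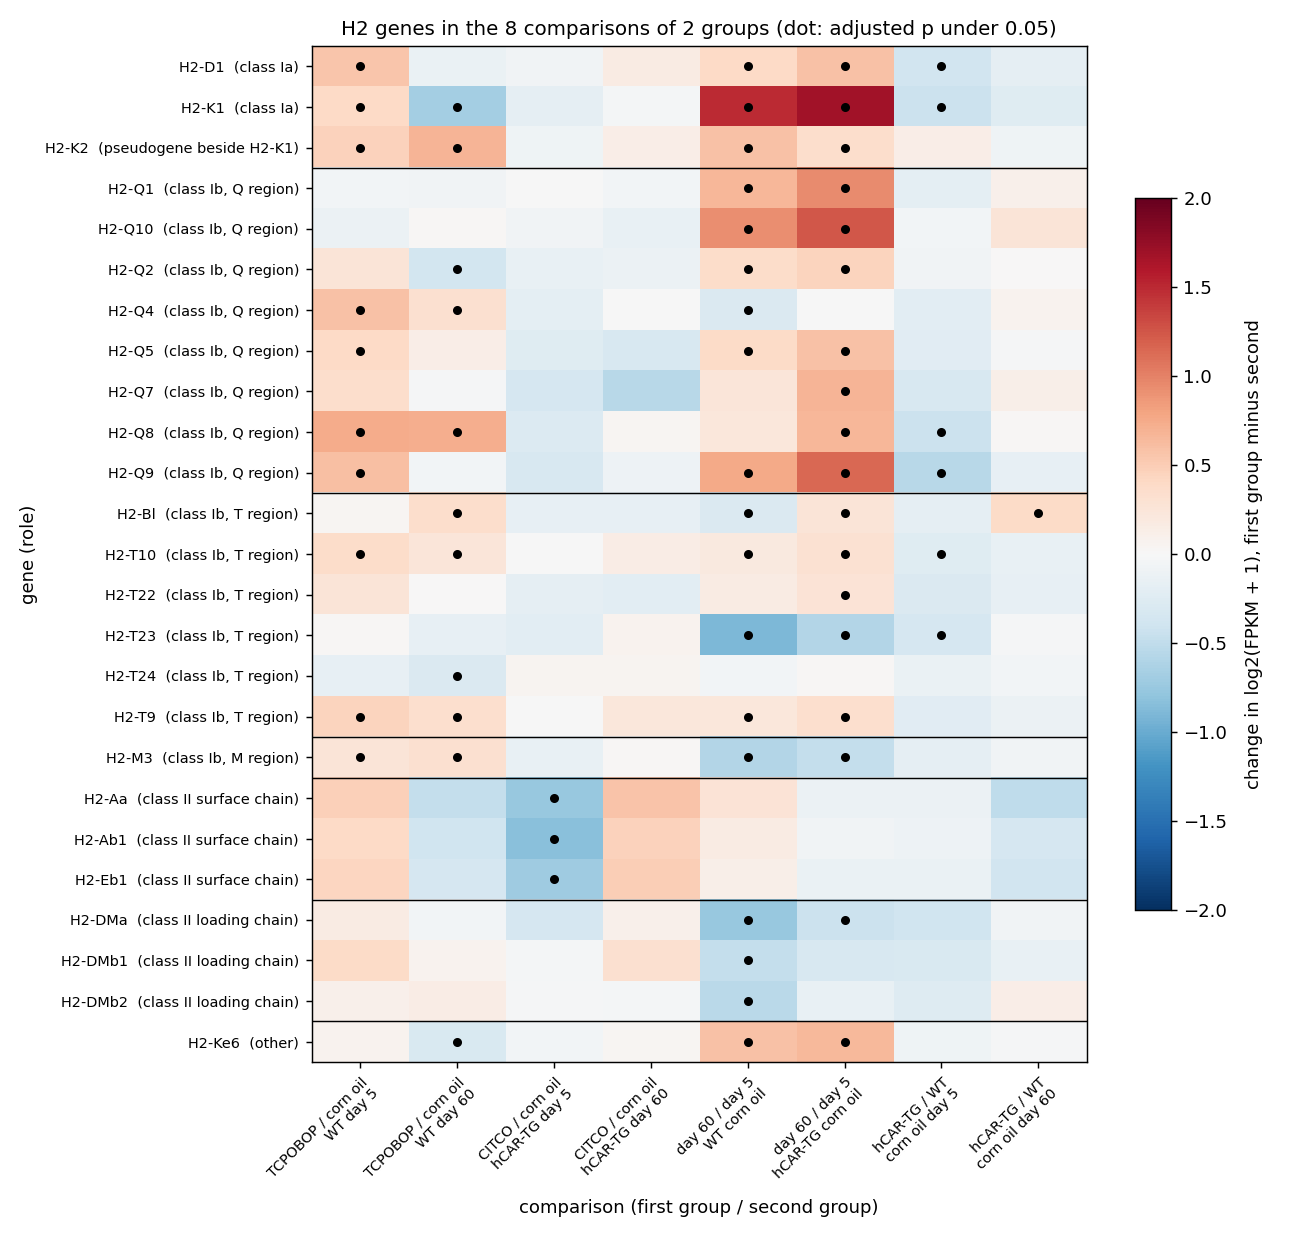
Change in log2(FPKM + 1) of the 25 tested H2 genes, ordered by role, in the 8 comparisons of 2 groups (red higher, blue lower in the first group), with a dot where the adjusted p was under 0.05. H2-K1 shows the darkest red with age (1.50 and 1.68), and the 3 class II surface chains have dots only in the CITCO day 5 column.

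Genotypes were compared in corn oil livers of each age, where hCAR-TG mice had no CITCO. CAR targets were not all level between these groups. At day 60 Cyp2b10 (225 FPKM against 12.9 in WT, log2 difference 4.07 ± 0.26), Gstm3 (1.19) and Cyp2c55 (0.91) were called higher in hCAR-TG. The other CAR targets were not called at that age. Among newborns Cyp2c55 (0.88) was called higher and Cyp2c29 (-2.16) lower. At day 5 the called members were all lower in hCAR-TG: 6 of 25 (0 higher, 6 lower), beside 10.6% of all genes called (8.29% higher, 2.27% lower). The members' median log2 difference was -0.22 against 0.03 over all genes, and 12 had groups that did not overlap, against 21.7% of all genes. H2-K1 was lower in all 3 hCAR-TG libraries than in any WT library (log2 difference -0.42 ± 0.10; adjusted p = 0.00655), as was H2-D1 (-0.38 ± 0.09; adjusted p = 0.00903). H2-Q9 showed the largest difference (-0.56 ± 0.14; adjusted p = 0.0118), followed by H2-Q8 (9.70, 8.90 and 9.49 FPKM in WT, 7.42, 5.51 and 7.39 in hCAR-TG; -0.42 ± 0.12; adjusted p = 0.0302). H2-T23 and H2-T10 completed the 6, at -0.33 and -0.24. H2-Q10 (-0.05) and the class II surface chains (-0.14 to -0.11) were not called.

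The count at day 5 rested on single libraries: without hCAR-TG corn oil replicate 2, the lowest of its group for H2-K1 and H2-D1, 2 members were called, and in a fit of these 2 groups alone 1 was. Neutrophil and erythroid markers were also higher in hCAR-TG at this age (8 of 8 and 8 of 9 called), as were 3 of 5 tested intestine markers (Lypd8 3.05 ± 0.23). B cell markers were lower in 3 of 5 (Cd79a -0.40, Cd79b -0.48 and Ms4a1 -0.77). Of the Kupffer markers Marco (1.75) was called higher and Clec4f (-0.42) lower, and the pan-leukocyte marker Coro1a (0.45) was called higher. The part of all these markers in the H2 values was not tested. The read file digit was 3 in all WT and 4, 4 and 5 in the hCAR-TG libraries, so this digit and the genotype cannot be told apart at day 5. Of the class I loading genes 1 was higher (Tapbpl, 0.21) and 0 lower, and B2m was not called (-0.25 ± 0.09; adjusted p = 0.0724). At day 60, 1 of 25 was called (1 higher, 0 lower), beside 4.90% of all genes (3.05% higher, 1.85% lower), and 6 had groups that did not overlap, against 24.9%. The called member was H2-Bl, a low T region gene, at 1.04, 1.07 and 1.01 FPKM in WT and 1.78, 1.53 and 1.67 in hCAR-TG (0.38 ± 0.10; adjusted p = 0.0255). It was called no longer without WT replicate 2, hCAR-TG replicate 1 or hCAR-TG replicate 3, where 0 members were called. The read file digit was 1 in all WT and 2 in all hCAR-TG corn oil libraries of day 60. Between these groups digit and genotype cannot be told apart. With the digit as a factor, which leans on the other groups, 0 members were called. H2-Q10 was higher in all 3 hCAR-TG libraries of day 60 than in any WT library without passing the test (0.26 ± 0.08; adjusted p = 0.0743). The class II surface chains, with log2 differences of -0.51 to -0.34, were not called.

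In newborn WT liver class I RNA was higher with TCPOBOP than with corn oil. Of 25 members 10 were called, all higher (10 higher, 0 lower), beside 35.9% of all genes called (24.6% higher, 11.3% lower). The members' median log2 change was 0.36 against 0.04 over all genes, and 16 had groups that did not overlap, against 47.6% of all genes. H2-K1, H2-D1, the pseudogene H2-K2, 4 of 8 Q region genes, 2 of 6 T region genes and H2-M3 were called, and none of the 6 class II genes. H2-D1 was at 252, 249.9 and 272 FPKM with TCPOBOP, above every corn oil library (0.56 ± 0.09; adjusted p = 5.23e-05). H2-K1 was at 252, 231 and 288, also without overlap (0.40 ± 0.10; adjusted p = 0.0028). The ratio of H2-K1 to H2-D1 (0.999, 0.924 and 1.06) lay below every corn oil library.

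In the Q region, H2-Q8 showed the largest change of any member at 15.8, 16.3 and 17.2 FPKM (1.75-fold; 0.75 ± 0.12; adjusted p = 6.18e-05). H2-Q9 was at 16.8, 17.3 and 19.02 (0.61 ± 0.14; adjusted p = 0.00175) and H2-Q4 at 34.4, 36.2 and 40.3 (0.58 ± 0.09; adjusted p = 4.09e-05), both above all corn oil libraries. H2-Q10 did not share in this: its TCPOBOP values (411, 448 and 456) lay below all corn oil values, with a change that did not pass the test (-0.12 ± 0.08; adjusted p = 0.264). Its share of the summed class I FPKM was 39.5 to 41.6% with corn oil and 31.7 to 34.1% with TCPOBOP, without overlap. H2-T9 (0.45), H2-T10 (0.36) and H2-M3 (0.26) were called higher, while H2-T23 was at 219, 214 and 218, within the corn oil range (0.02 ± 0.07).

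Class II surface chains were higher in every TCPOBOP library of day 5 than in any corn oil library but did not pass the test. H2-Aa was at 27.3, 33.1 and 28.1 (0.48 ± 0.21; adjusted p = 0.0916), H2-Ab1 at 21.2, 25.6 and 20.5 against 15.8, 15.5 and 18.8 (0.40 ± 0.25; adjusted p = 0.235) and H2-Eb1 at 12.6, 15.8 and 12.3 against 9.39, 9.02 and 10.9 (0.43 ± 0.24; adjusted p = 0.162). H2-DMa was at 4.07, 5.13 and 4.09, overlapping corn oil (0.17), and H2-DMb1 at 4.66, 5.49 and 4.25, above all 3 corn oil libraries (0.38 ± 0.19; adjusted p = 0.12). Cd74, their invariant chain, was called: 59.8, 56.6 and 58.5 with corn oil and 88.4, 105 and 89.6 with TCPOBOP (0.68 ± 0.21; adjusted p = 0.0158).

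Genes that load class I were higher as well at day 5: 9 of 15 were called higher and 0 lower, with a median log2 change of 0.38. Tapbp, the bridge between TAP and class I, was 0.59 ± 0.06 (adjusted p = 7.61e-08), Tapbpl 0.49 ± 0.06, the proteasome activator Psme1 0.52 ± 0.08, the immunoproteasome subunit Psmb10 0.55 ± 0.10 and Tap1 0.47 ± 0.12. B2m itself, at 729.9, 712 and 766 and 837, 690.4 and 875 FPKM, overlapped and was not called (0.12 ± 0.09; adjusted p = 0.32), nor was Nlrc5, the class I transactivator (0.06 ± 0.16). Of 29 tested interferon response genes, 5 were higher and 4 lower. Beside these results, the T and NK cell sum was 14.9 to 17.3 FPKM with corn oil and 23.2 to 23.4 with TCPOBOP. The Kupffer sum was 648 to 675 and then 769.8 to 909, the pan-leukocyte sum 91.5 to 100.5 and then 113 to 120.3, and the dendritic and B cell sums overlapped. Called higher were 4 of 10 Kupffer, 2 of 4 tested T and NK and 2 of 5 pan-leukocyte markers. The Kupffer markers did not move as 1 set: Marco (1.37) and Cd5l (0.53) were among those called, while Clec4f (-0.24) and Vsig4 (0.03) were not called. The part of all these markers in the H2 values was not tested. The read file digit was 3 in all corn oil and 4 in all TCPOBOP libraries, so this digit and the treatment cannot be told apart.

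In adult WT liver members changed in both directions with TCPOBOP, and were called no more often than genes in general. H2-K1, H2-Q2, H2-T24 and H2-Ke6 fell, while H2-Q8, H2-K2, H2-Q4, H2-Bl, H2-T9, H2-T10 and H2-M3 rose. Of 25 members 11 were called (7 higher, 4 lower), beside 47.2% of all genes (31.4% higher, 15.8% lower). Their median log2 change was -0.02 against 0.06 over all genes, and 11 had groups that did not overlap, against 60.0% of all genes. Rescaling the libraries by median-of-ratios factors gave 6 higher and 7 lower in place of 7 and 4, with H2-K1, H2-Q8 and H2-K2 keeping direction and call.

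H2-K1 was at 325, 348 and 354 FPKM with TCPOBOP at day 60, below every corn oil library (0.624 of the corn oil mean; -0.68 ± 0.10; adjusted p = 6.02e-06). H2-D1 was at 205, 217 and 209, overlapping corn oil (-0.13 ± 0.09; adjusted p = 0.244). Their ratio was 1.58, 1.60 and 1.70 with TCPOBOP, below all corn oil libraries of that age and above all day 5 libraries. H2-K2, at 7.06, 6.90 and 7.05, was above every corn oil library (0.68 ± 0.13; adjusted p = 0.000193). B2m fell with H2-K1: 1349, 1563 and 1284 with corn oil and 966, 966 and 1084 with TCPOBOP (-0.47 ± 0.09; adjusted p = 0.000105).

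H2-Q8 rose to 18.8, 20.8 and 17.5 FPKM from 10.6, 12.9 and 9.89 (0.73 ± 0.12; adjusted p = 4.75e-05). H2-Q9, at 17.2, 20.6 and 19.6, overlapped corn oil and was not called (-0.05 ± 0.14). The ratio of H2-Q8 to H2-Q9 was 0.531, 0.584 and 0.563 with corn oil and 1.09, 1.01 and 0.893 with TCPOBOP. H2-Q4 (0.31) was called higher, and H2-Q2 was called lower, at 5.46, 5.48 and 3.48 against 6.08, 6.53 and 6.55 (-0.37 ± 0.13; adjusted p = 0.0208). H2-Q10 was at 828, 926 and 1022, around the corn oil values (0.02 ± 0.08; adjusted p = 0.88). In the T region H2-Bl was at 1.35, 2.15 and 1.37 (0.35 ± 0.10) and H2-T9 at 41.5, 42.3 and 39.2 against 28.6, 35.4 and 33.6 (0.33 ± 0.08), both called higher. H2-T24, a T region gene of unsettled role, fell to 1.71, 1.68 and 1.91 from 2.51, 2.62 and 2.05 (-0.29 ± 0.09; adjusted p = 0.00914). H2-Ke6 fell to 35.9, 35.7 and 37.2 from 46.6, 43.1 and 45.8 (-0.31 ± 0.07; adjusted p = 0.0014).

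None of the 6 class II genes passed the test with TCPOBOP at day 60. H2-Aa was at 16.7, 22.02 and 15.8 (-0.48 ± 0.21; adjusted p = 0.0741), H2-Ab1 at 12.6, 17.9 and 11.9 against 18.3, 32.8 and 10.7 (-0.40) and H2-Eb1 at 7.94, 10.03 and 6.89 against 9.09, 19.1 and 6.74 (-0.34). All overlapped corn oil, whose second replicate was the highest library of the series for these chains. H2-DMa was at 1.73, 1.80 and 1.69 and H2-DMb1 at 2.26, 2.68 and 2.14, with log2 changes of -0.05 and 0.07. Cd74, at 43.4, 58.2 and 41.3 against 62.97, 105 and 45.6, was not called either (-0.50 ± 0.21; adjusted p = 0.055). Of the class I loading genes 4 were higher (Tapbpl 0.51, Psme1 0.54 and Tapbp 0.31 among them) and 2 lower, B2m and Pdia3 (-0.35). Of the interferon response genes 10 were higher, with Rsad2 at 2.44 ± 0.17 and Irgm1 at 0.78 ± 0.11, and 1 lower. Hepatocyte markers were lower in 7 of 8 and erythroid markers in 7 of 9, and 2 of 10 Kupffer markers were lower; their part in the H2 values was not tested.

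The 2 TCPOBOP responses were compared with each other through the difference of their log2 changes. Of 25 members 6 differed between the ages (0 higher, 6 lower at day 60), a share close to the 23.4% of all genes (13.7% higher, 9.76% lower). H2-K1 differed most, higher at day 5 and lower at day 60 (-1.08 ± 0.14; adjusted p = 5.38e-06), followed by H2-Aa (-0.96 ± 0.30; adjusted p = 0.0272) and H2-D1 (-0.69 ± 0.13; adjusted p = 0.000383). The H2-Aa difference was lost without WT corn oil day 60 replicate 2 (-0.62; adjusted p = 0.059) and in 6 other refits. H2-Q9 (-0.66), H2-Q2 (-0.63) and H2-Ke6 (-0.39) were the others. Called higher at both ages were 6 members: H2-K2, H2-Q4, H2-Q8, H2-T9, H2-T10 and H2-M3. The share of all genes called higher at both ages is not given, so this count cannot be set against it.

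**Figure D3:**
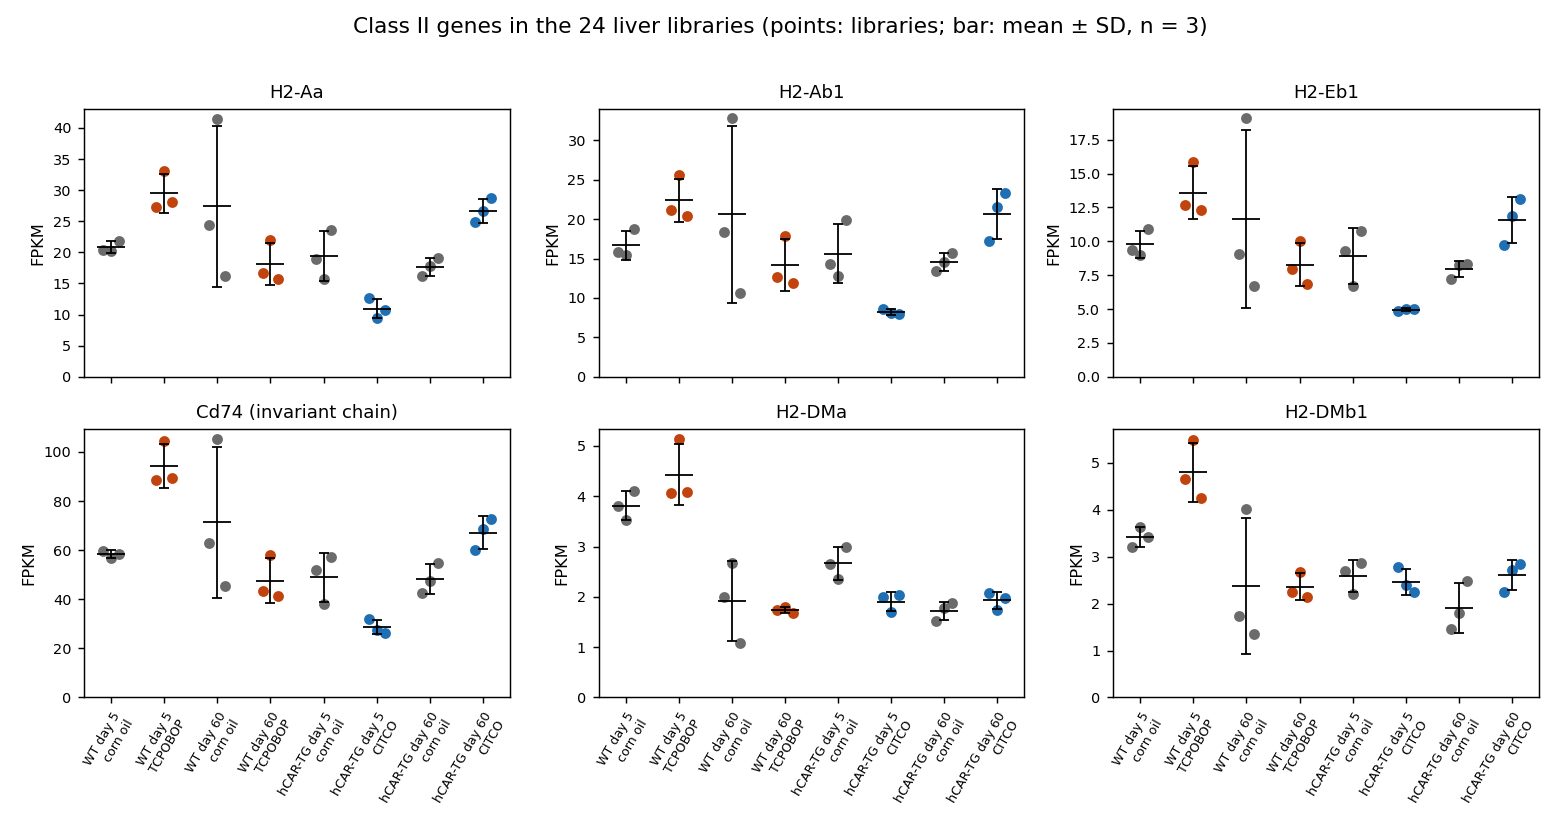
FPKM of the class II surface chains H2-Aa, H2-Ab1 and H2-Eb1, the invariant chain Cd74 and the loading chains H2-DMa and H2-DMb1 in each library (points), with the mean and SD of 3 libraries. The surface chains and Cd74 share the low CITCO values at day 5 and the wide spread of the WT corn oil libraries at day 60 (H2-Aa 16.3 to 41.5 FPKM).

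In newborn hCAR-TG liver the class II surface chains were lower with CITCO than with corn oil. Of 25 members 3 were called (0 higher, 3 lower), beside 17.1% of all genes (8.27% higher, 8.82% lower), and 8 had groups that did not overlap, against 35.0% of all genes. The members' median log2 change was -0.17 against 0.01 over all genes, and 24 of the 25 estimates were negative. The share of negative estimates over all genes is not given. H2-Aa was at 12.6, 9.52 and 10.7 FPKM with CITCO, below every corn oil library (0.565 of the mean; -0.76 ± 0.21; adjusted p = 0.0206). H2-Ab1 was at 14.3, 12.8 and 19.8 with corn oil and 8.64, 8.10 and 7.93 with CITCO (-0.83 ± 0.25; adjusted p = 0.0315). H2-Eb1 was at 9.25, 6.68 and 10.8 and 4.85, 5.01 and 5.03 (-0.71 ± 0.24; adjusted p = 0.0442). None of the 3 chains overlapped between the groups. Cd74 fell alongside, from 51.8, 37.96 and 57.1 to 31.9, 27.4 and 26.4 (-0.74 ± 0.21; adjusted p = 0.0207), and the surface chains summed to 0.819 to 0.95 times Cd74 with corn oil and 0.819 to 0.896 times with CITCO.

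The loading chains did not pass the test: H2-DMa was at 1.99, 1.69 and 2.04 with CITCO, below all corn oil libraries (-0.33 ± 0.13; adjusted p = 0.0872), and H2-DMb1 at 2.78, 2.39 and 2.24, overlapping (-0.05). H2-K1 (132, 121 and 132; -0.17 ± 0.10; adjusted p = 0.217) and H2-D1 (134, 122 and 131; -0.07 ± 0.09) overlapped corn oil and were not called. H2-Q10, at 426, 457 and 431, also overlapped (-0.08 ± 0.08). The largest class I estimates were H2-Q7 (-0.34) and H2-Q9 (-0.31), neither called.

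Of the 15 class I loading genes, 8 fell with CITCO at day 5 and 0 rose, with a median log2 change of -0.33. Psmb9 (-0.80 ± 0.15), Tap1 (-0.65 ± 0.12), Psmb10 (-0.60 ± 0.10), Tap2 (-0.47 ± 0.08) and Tapbpl (-0.39 ± 0.06) were called, and B2m (0.03 ± 0.09) was not. Of 29 interferon response genes 10 were lower and 1 higher, with Ifi47 at -0.99 ± 0.16 and Igtp at -0.98 ± 0.17. Beside the class II values, several marker sums were lower with CITCO without overlap. The dendritic cell sum was 6.03 to 7.02 FPKM with corn oil and 4.85 to 5.77 with CITCO. The pan-leukocyte sum was 109 to 116 and then 84.1 to 107, and the sinusoidal endothelial sum 152 to 180 and then 121 to 131. The neutrophil sum was 1120.5 to 1469 and then 561 to 1081. The erythroid, hepatocyte and intestine sums were also lower without overlap. The Kupffer (642 to 1041, then 712 to 829.7), B cell (10.9 to 12.9, then 11.8 to 17.5) and T and NK sums (11.8 to 18.2, then 11.1 to 14.3) overlapped. Called lower were 1 of 10 Kupffer, 2 of 5 pan-leukocyte, 5 of 7 sinusoidal endothelial and 4 of 8 neutrophil markers and no tested dendritic or B cell marker. Also called lower were 4 of 5 tested intestine markers, with Lypd8 at -3.37 ± 0.23, and 3 of 9 erythroid markers. The part of none of these in the H2 values was tested.

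These 3 calls rested on single libraries, and H2-Eb1 lost its call in 8 of 15 refits: 0 members were called without hCAR-TG corn oil replicate 3, CITCO replicate 2 or CITCO replicate 3, 1 without CITCO replicate 1, and 7 without corn oil replicate 2. With the read file digit as a factor 9 were called, all lower, and the 1 corn oil library that shares the digit 5 with the CITCO libraries (replicate 3) had the highest H2-Aa of its group. The share of all genes called in these refits is not given, so their counts cannot be set against it.

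In adult hCAR-TG liver no member passed the test with CITCO: 0 of 25 with limma (5 at an unadjusted p under 0.05), beside 8.37% of all genes (4.40% higher, 3.97% lower). The members' median log2 change was 0.03 against 0.00 over all genes, and 9 had groups that did not overlap, against 31.9% of all genes. The class II surface chains were higher in every CITCO library than in any corn oil library. H2-Aa was at 24.8, 26.6 and 28.7 FPKM against 16.1, 17.9 and 19.02 (0.57 ± 0.21; adjusted p = 0.119). H2-Ab1 was at 17.2, 21.5 and 23.3 against 13.5, 14.6 and 15.7 (0.47 ± 0.25; adjusted p = 0.321) and H2-Eb1 at 9.74, 11.9 and 13.1 against 7.24, 8.26 and 8.34 (0.48 ± 0.24; adjusted p = 0.248). In these chains the sets did not overlap, while the estimates missed the threshold of the pooled fit. A fit of these 2 groups alone called 4 members, all higher, and leaving out the 2 deviating libraries of other groups called 3, all higher. For these refits the share of all genes called is not given.

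Among the class I genes of adult hCAR-TG liver, H2-K1 was at 521, 431 and 412 with CITCO, on both sides of the corn oil values (-0.04 ± 0.10). H2-D1 was at 257, 216 and 209, above all 3 corn oil libraries (0.16 ± 0.09; adjusted p = 0.339), and the ratio of H2-K1 to H2-D1 was 2.03, 1.99 and 1.97, below all corn oil libraries. H2-Q10 was at 973, 917 and 1062, below all of them (-0.15 ± 0.08; adjusted p = 0.32). CITCO replicate 1 was the highest of its group for H2-K1, H2-D1, H2-Q7, H2-Q8 and H2-Q9, and without it 2 members were called, both lower. H2-DMa (2.07, 1.74 and 1.98; 0.11) and H2-DMb1 (2.24, 2.71 and 2.85; 0.32) overlapped corn oil. In the class I loading list Tapbp (0.29) and Psme1 (0.30) were higher and the chaperones Calr (-0.62) and Pdia3 (-0.49) lower. No marker of Kupffer, dendritic, B or T and NK cells was called.

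The CITCO responses of the 2 ages differed in 3 of 25 members (3 higher, 0 lower at day 60), beside 9.99% of all genes (5.37% higher, 4.62% lower). These were the surface chains H2-Aa (1.33 ± 0.30; adjusted p = 0.00898), H2-Ab1 (1.29 ± 0.36; adjusted p = 0.0276) and H2-Eb1 (1.20 ± 0.33; adjusted p = 0.0278), lower with CITCO at day 5 and with higher values at day 60. H2-Aa stayed called in every refit, at 1.13 to 1.52, while H2-Ab1 lost its call in 8 and H2-Eb1 in 9. The count was 1 without any one of hCAR-TG day 5 corn oil replicate 3, day 5 CITCO replicates 2 and 3, day 60 corn oil replicate 1 and day 60 CITCO replicates 2 and 3.

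**Figure D4:**
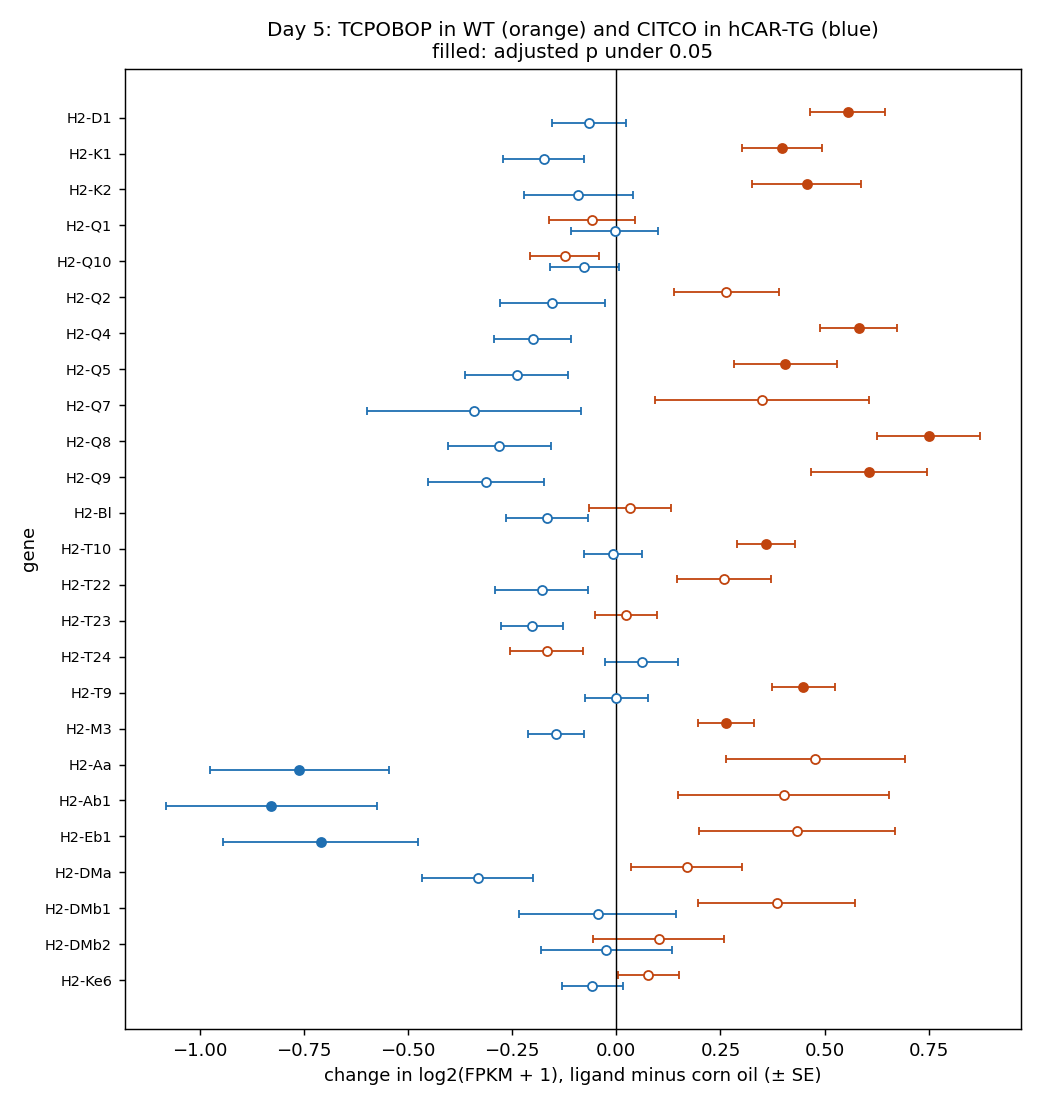
Change in log2(FPKM + 1) with the ligand at day 5 for each tested H2 gene (± SE), TCPOBOP in WT in orange and CITCO in hCAR-TG in blue, filled where the adjusted p was under 0.05. The filled TCPOBOP points are class I genes to the right of 0 (0.26 to 0.75), and the filled CITCO points are the class II surface chains to the left (-0.83 to -0.71).

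TCPOBOP in WT and CITCO in hCAR-TG were compared as responses at the same age. Doses are not given, so the difference holds for the 2 treatments as carried out. At day 5 the responses differed in 15 of 25 members (0 higher, 15 lower with CITCO), beside 33.7% of all genes (11.5% higher, 22.2% lower). The members' median difference was -0.45 against -0.05 over all genes. The class II surface chains had the largest differences (H2-Aa -1.24 ± 0.30, adjusted p = 0.00454; H2-Ab1 -1.23 ± 0.36; H2-Eb1 -1.14 ± 0.33). All 3 stayed called in each of their 20 refits, but the read file digit could not be fitted as a factor here. H2-Q8 (-1.03 ± 0.17; adjusted p = 0.000169), H2-Q9 (-0.92 ± 0.20) and H2-Q4 (-0.78 ± 0.13; adjusted p = 0.000145) followed. H2-D1 (-0.62 ± 0.13) and H2-K1 (-0.57 ± 0.14) were lower as well, and H2-Q10 did not pass the test. Of the other called members, H2-T22 lost its call in 15 of 20 refits, H2-DMa in 12 of 19 and H2-K2 in 6 of 20. In the class I loading list 11 of 15 differed, all lower with CITCO.

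At day 60 the responses differed in 8 of 25 members (4 higher, 4 lower with CITCO), beside 33.8% of all genes (9.77% higher, 24.1% lower). Rescaling moved this split to 8 higher and 2 lower, and without hCAR-TG corn oil day 60 replicate 3 the count was 5. H2-Aa (1.05 ± 0.30; adjusted p = 0.0111) and H2-K1 (0.64 ± 0.14; adjusted p = 0.00105) were higher with CITCO, along with H2-T24 (0.35) and H2-Ke6 (0.35). H2-Q8 (-0.69 ± 0.17; adjusted p = 0.00384), H2-K2 (-0.55), H2-Bl (-0.52) and H2-M3 (-0.30) were lower. For H2-Aa, both estimates that enter this difference had missed the threshold alone, and the call was lost with the read file digit as a factor (0.86; adjusted p = 0.124) and in a fit of these 4 groups alone (1.05; adjusted p = 0.0541). H2-T24 lost its call in 9 of 20 refits, H2-M3 in 8 of 20 and H2-K2 in 5 of 21.

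Across all 8 groups, WT day 5 TCPOBOP had the highest mean for 11 of the 25 tested members, and hCAR-TG day 5 CITCO the lowest for 18. The like shares over all genes are not given, and members that share reads or loci do not count independently. Summed class I FPKM was 1207, 1129 and 1228 in WT corn oil at day 5 and 1299, 1314 and 1417 with TCPOBOP. It was 992, 942 and 1127 in hCAR-TG corn oil at day 5 and 936, 933 and 941 with CITCO. At day 60 it was 1906, 2035 and 1934 in WT corn oil and 1637, 1778 and 1854 with TCPOBOP, and 2069, 2004 and 1993 in hCAR-TG corn oil and 2038, 1831 and 1932 with CITCO. H2-Q10 made up 31.7% to 55.1% of this sum. The ratio of H2-K1 to B2m was 0.256 to 0.268 in WT corn oil at day 5 and 0.374 to 0.416 at day 60, with no overlap.

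**Figure D5:**
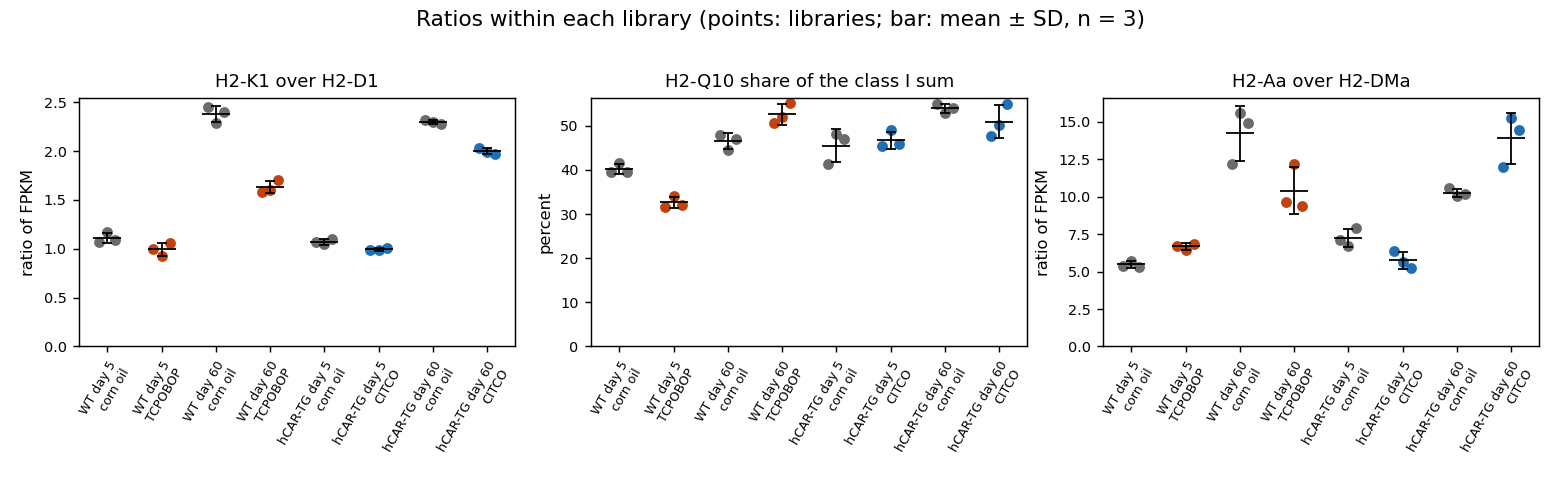
Ratios within each library (points; mean and SD of 3 libraries): H2-K1 over H2-D1, the percent of summed class I FPKM held by H2-Q10, and H2-Aa over H2-DMa. The H2-K1 to H2-D1 ratio was 0.924 to 1.17 in all day 5 libraries, 2.28 to 2.45 in WT corn oil at day 60 and 1.58 to 1.70 with TCPOBOP.

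The 2 chains of the class II molecule stayed close to a fixed proportion. The ratio of H2-Aa to H2-Ab1 had group means of 1.21 to 1.37, and its range in each of the other groups overlapped that of WT corn oil at day 5 (1.17 to 1.30). Summed surface chains over Cd74 were 0.763 to 0.882 in WT corn oil at day 5 and 0.679 to 0.713 with TCPOBOP, where Cd74 alone was called. Ciita, the class II transactivator, was at 0.204 to 0.627 FPKM over the 24 libraries and was not tested.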

How the data were processed

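Liver poly(A) RNA was measured in 24 libraries, 8 groups of 3 replicates; per the labels' protocols, RNA came from RNA Bee extraction and libraries from a TruSeq stranded mRNA kit. The authors deposited 1 table of FPKM values per library, with interval bounds and a status per gene per the file headers. The build was mm10 per the submitters' processing notes; the aligner is not given in the sources used here. Fragment counts were not used here, so absolute depth is unknown; FPKM totals were 446595 to 502458. The 279 repeated symbols were summed and 5 genes with a failed estimate left out.

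Values were analysed as log2(FPKM + 1), so fold changes of low genes are understated. Genes at 1 FPKM or more in at least 3 libraries (12282) were fitted together in limma 3.58.1 (R 4.3.3) with 1 mean per group, 16 residual degrees of freedom and trended, robust empirical Bayes. Each of 12 comparisons was adjusted by Benjamini-Hochberg over all genes, and a call is an adjusted p under 0.05. The fit was tested on simulated data. Shared sequence was counted as 50-base stretches of GENCODE M21 transcripts found in another gene; promoters were RefSeq GRCm38.p6.

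Members and lists were chosen with earlier results of these data known. Printed per library were H2-K1, H2-D1, H2-Q10, H2-Aa, H2-Ab1, H2-Eb1, H2-DMa and H2-DMb1, and per comparison of 2 groups up to 4 called members with the largest change each way; of each pathway list, up to 5 called genes and B2m, Tap1, Cd74, Ciita and Nlrc5. Alternatives were rescaling, another pseudocount, other filters, a replicate block, array weights, the read file digit, the compared groups alone and leaving out libraries.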

Additional observations from a re-analysis of the deposited data

Results flagged for a closer look

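These are the members whose response differed in a test of the difference between 2 responses (limma, adjusted over all genes). They are given as differences in log2 change, and comparisons within a genotype or age share libraries with each other.

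Between the ages, the TCPOBOP response was lower at day 60 for H2-K1 (-1.08), H2-Aa (-0.96), H2-D1 (-0.69), H2-Q9 (-0.66), H2-Q2 (-0.63) and H2-Ke6 (-0.39). There H2-Aa was no longer called in 7 of 20 refits and H2-Q9 in 2 of 20. The CITCO response was higher at day 60 for H2-Aa (1.33), H2-Ab1 (1.29) and H2-Eb1 (1.20). For this response H2-Ab1 was no longer called in 8 of 21 refits and H2-Eb1 in 9 of 21, while H2-Aa was called in each.

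At day 5 the CITCO response of hCAR-TG was below the TCPOBOP response of WT for the class II chains H2-Aa (-1.24), H2-Ab1 (-1.23), H2-Eb1 (-1.14) and H2-DMa (-0.50). The same held for the Q region genes H2-Q8 (-1.03), H2-Q9 (-0.92), H2-Q4 (-0.78) and H2-Q5 (-0.65), the classical chains H2-D1 (-0.62) and H2-K1 (-0.57) and the pseudogene H2-K2 (-0.55). It held too for H2-T9 (-0.45), H2-T22 (-0.44), H2-M3 (-0.41) and H2-T10 (-0.37). H2-T22 was no longer called in 15 of 20 refits (-0.60 to -0.18, adjusted p up to 0.224) and H2-DMa in 12 of 19 (adjusted p up to 0.122). The call of H2-K2 was lost in 6 of 20, while H2-T9, H2-M3 and H2-T10 were called in each of theirs. None of these refits had the read file digit as a factor, which could not be fitted here.

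At day 60 the CITCO response was above the TCPOBOP response for H2-Aa (1.05), H2-K1 (0.64), H2-T24 (0.35) and H2-Ke6 (0.35). It was below for H2-Q8 (-0.69), H2-K2 (-0.55), H2-Bl (-0.52) and H2-M3 (-0.30). H2-T24 was no longer called in 9 of 20 refits (adjusted p up to 0.127) and H2-M3 in 8 of 20 (adjusted p up to 0.12). The call was lost for H2-K2 in 5 of 21, H2-Aa in 2 of 21 (adjusted p up to 0.124) and H2-Q8 in 1 of 21.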

How the results depend on the processing

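Of 1604 values of called members under alternatives, 1431 kept direction and call, 171 kept direction only and 2 turned. With the read file digit as a factor, which could not be fitted for TCPOBOP at day 5, age in hCAR-TG, genotype at day 5 and the 2 differences that use them, counts of called members were 9 for CITCO at day 5 (3 without it), 8 for age in WT (18), 0 for genotype at day 60 (1), 6 for the CITCO responses of the 2 ages (3) and 5 for the responses at day 60 (8); H2-Q2 (-0.36) and H2-Q5 (-0.23) turned with age in WT, and the cause was not tested. Array weights gave 5 for CITCO at day 5, 1 at day 60 (0), 13 for genotype at day 5 (6), 2 at day 60 and 10 for the TCPOBOP responses of the 2 ages (6). Fitting the compared groups alone, with fewer samples, gave 1 for CITCO at day 5, 4 at day 60 and 1 for genotype at day 5. A filter at 5 FPKM gave 1 for CITCO at day 60 and 0 for genotype at day 60, and rescaling gave 1 for CITCO at day 60. Leaving out the 2 deviating libraries, chosen after seeing the data, gave 3 for CITCO at day 60 and 0 for genotype at day 60. Leaving out 1 library at a time gave 8 to 11 members for TCPOBOP at day 5, 10 to 14 at day 60, 0 to 7 for CITCO at day 5, 0 to 2 at day 60, 15 to 19 for age in WT, 15 to 17 in hCAR-TG, 2 to 8 for genotype at day 5 and 0 to 1 at day 60. The same refits gave 4 to 9 and 1 to 4 for the TCPOBOP and CITCO responses of the 2 ages, 12 to 17 for the 2 responses at day 5 and 5 to 10 at day 60. Shares of all genes called under these alternatives are not given, so changes in the counts cannot be set against genes in general. Replicate numbers did not pair the samples, since in no comparison were all 3 same-number correlations over 0.1; with the replicate block, counts were the same except 13 in place of 15 for the responses at day 5. Rescaling moved the median of all genes by 0.107 (log2) for age in hCAR-TG. Low members limit precision: the deposited interval reached a median of 40.2% of the value to either side for H2-DMb2 and 1.0% for H2-Q10.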
